A study of Mus musculus with 4 samples.

Results

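The eye-field transcription factors are the proteins that mark out the part of the anterior neural plate that becomes the retina, and several of them stay on in retinal progenitors until the last divisions. The 8 genes described here were Six3, Six6, Sox2, Sox9, Pax6, Rax, Lhx2 and Nr2e1, chosen by symbol from the 52550 genes of the count table. All 8 were among the 13632 genes with enough counts to be tested. They were followed in RNA immunoprecipitation sequencing (RIP-Seq) with an antibody against YTHDF2, in which RNA held by the protein is recovered with it and sequenced. Retinas of wild-type C57BL/6 mice were taken on postnatal day 0 (P0) and dissociated with papain, so the material was a mixture of progenitors and young neurons and no cell type was sorted. There were 2 replicates, each with a library made before the pulldown (input) and a library made after it (RIP), and the number of animals behind a replicate was not stated. A control IgG precipitation is named in the study's methods and is not analysed here, so RIP was compared with input alone.

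YTHDF2 is a cytoplasmic reader of N6-methyladenosine (m6A), a methyl mark on adenosines inside mRNA, and it is known for bringing marked transcripts to the decay machinery. The eye-field factors work as a network. Pax6, Rax, Six3, Lhx2 and Six6 are homeodomain proteins that sustain one another's expression, Sox2 and Sox9 are HMG-box proteins that keep progenitors competent to divide, and Nr2e1 (Tlx) is an orphan nuclear receptor of neural stem and progenitor cells. In the newborn retina Pax6, Six3 and Sox2 are also kept by subsets of amacrine cells, and Pax6 by retinal ganglion cells (RGCs), while Sox9 is later a Müller glia gene.

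GGACT is a common core of the consensus in which m6A is placed. The 5 letters were searched on the transcript strand alone, in 1 annotated transcript a gene, since the transcripts are what was pulled down. Among 11953 tested protein-coding genes 92.1% held it, with a median of 3 copies or 1.05 per kilobase, so its presence does not set a gene apart. The copy nearest the stop codon is shown for 7 members, with GGACT in capitals inside a window of 21 nt read 5′ to 3′ from GRCm38. Six3 and Sox2, which fell in the RIP, can then be seen beside Pax6 and other members that were not called.
Six3, chr17:85627837-85627857, plus strand, exon 3 of 3, 3′ UTR: ttctctgtGGACTgggggctt
Sox2, chr3:34651373-34651393, plus strand, exon 1 of 1, 3′ UTR: tgagggctGGACTgcgaactg
Pax6, chr2:105695448-105696281, plus strand, coding, across the junction of exons 12 and 13: cttcaacaGGACTcatttcac
Lhx2, chr2:38369365-38369385, plus strand, exon 5 of 5, 3′ UTR: agttttgtGGACTgagcgagg
Six6, chr12:72940543-72940563, plus strand, exon 1 of 2, coding: aggcaaccGGACTgaccccca
Sox9, chr11:112785867-112785887, plus strand, exon 3 of 3, 3′ UTR: gcctgtttGGACTttgtaatt
Nr2e1, chr10:42563215-42563235, minus strand, exon 9 of 9, 3′ UTR: atgccaacGGACTcaaaacaa
The 2 members that fell were not poor in these letters. Six3 held 6 copies, 5 of them in the 3′ UTR, and its 2.11 copies per kilobase lay above 90.7% of tested protein-coding genes. Sox2 held 3 copies, all in the 3′ UTR, the nearest 8 nt past the stop codon. Pax6 held 7 copies at 2.44 per kilobase, the densest of the 8, whereas Nr2e1 held 1 copy at 0.304 per kilobase. Rax held 1 copy, in its coding sequence. No mark was measured in these libraries, and a match to the letters is a description of the sequence.

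Total counts were between 19530226 and 39499994 per library, of which protein-coding genes held 8.37% to 11.5%. The ribosomal RNA genes AY036118 and CT010467.1 took 55.0% and 55.5% of the inputs and 85.3% and 87.8% of the RIP libraries. Mitochondrially encoded genes took 18.6% and 19.4% of inputs 1 and 2, and 0.578% and 0.522% of RIP 1 and 2. Together the 8 members held 10449 and 8754 counts before the pulldown (inputs 1 and 2) and 4294 and 3850 after it (RIP 1 and 2), so counting error was small and the spread between replicates set the precision. CPM values below are counts brought to a common library size and scaled by TMM, which sets the bulk of genes level between libraries, and a fold change is therefore relative to the typical transcript. Across all tested genes the median log2 fold change (RIP/input) was -0.05, and 0.27 with library size alone. Enriched means a log2 fold change of 1 or more at an unadjusted p below 0.05, and depleted means -1 or less at the same p. The words rose and fell are used for an adjusted p below 0.05 (edgeR quasi-likelihood test, Benjamini-Hochberg over all tested genes).

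The label of progenitor genes was set beside markers of the cells that P0 retina could hold. All 13 progenitor markers were tested, with a median log2 fold change of -0.32, 4 of them above 0 and 9 below. Mki67 and Hes1 fell, as did 9.78% of all tested genes. The inputs of Mki67 were far apart (13.6 and 69.6 CPM, against 7.02 and 8.61 CPM in the RIP), with log2 ratios of -0.95 and -3.01 in replicates 1 and 2. Of 12 RGC markers, Sncg, Nefm, Gap43 and Stmn2 fell and the other 8 were not called. The inputs of Nefm were far apart too (7.20 and 24.4 CPM, against 3.09 and 3.33 CPM in the RIP), with log2 ratios of -1.20 and -2.85. All 12 RGC markers together summed to 42.1 and 37.2 FPKM in the inputs and 15.6 and 11.5 FPKM in the RIP libraries. Much of that difference was Sncg, with 21.7 and 14.6 FPKM in the inputs and 2.17 and 1.84 FPKM in the RIP libraries. Among 12 lens markers 9 were at 0 in every library, Cryaa among them, and among 10 pigment epithelium markers 5 were at 0, Rpe65 and Tyr among them. Summed lens markers reached at most 0.231 FPKM in the inputs and 0.141 FPKM in the RIP libraries. Pigment epithelium markers summed to 0.110 to 0.318 FPKM in the inputs and 0.294 to 0.323 FPKM in the RIP libraries. Microglia and astrocyte markers summed to 0.882 and 0.9998 FPKM in the inputs and 1.38 and 1.62 FPKM in the RIP libraries, vascular and blood markers to 5.04 to 5.39 and 8.09 to 10.1 FPKM. Kdr alone carried the higher vascular sum, with 2.66 and 3.05 FPKM in the inputs and 8.35 and 6.41 FPKM in the RIP libraries. It was enriched, 1 of 4 tested vascular and blood markers. Of 5 tested microglia and astrocyte markers 2 were enriched, Csf1r and Pdgfra, beside 9.43% of all tested genes. None of these genes rose. None of the 12 amacrine and horizontal cell markers rose. Onecut1 and Tfap2b, 2 of the 12, were depleted, beside 17.2% of all tested genes, and of them only Onecut1 fell. The inputs of Onecut1 were far apart (3.51 and 10.1 CPM, against 1.27 and 1.75 CPM in the RIP). Of the 10 photoreceptor markers, 8 were tested and none was called. The sums are in FPKM as deposited, scaled by library size and not by TMM, so they are not on the scale of the fold changes. The part of other cell types in the members' values was not tested.

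The RIP enriched none of the 8 members, while 9.43% of all tested genes were enriched. Six3 and Sox2 were depleted, which 17.2% of all tested genes were, and the same 2 fell (9.78% of all tested genes). None rose (3.48% of all tested genes), none was above input at an unadjusted p below 0.05, and none rose with DESeq2 or limma. Enriched genes were 35.4% of all genes called in either direction, and 57.7% when library size alone was used. A count of 2 among 8 is not far from these shares. The other 6 had log2 fold changes between -0.74 for Pax6 and -0.26 for Lhx2 and did not pass the test. The median of the 8 was -0.50. In all 8 both RIP libraries lay below both inputs on the TMM scale, an order held by 31.3% of all tested genes. That order depended on the scaling. With library size alone it held for Pax6, Six3 and Sox2 (22.7% of all tested genes) and the libraries of the other 5 overlapped, and the same 3 were below in FPKM as deposited (24.3%). On the TMM scale the groups of 39.1% of all tested genes overlapped, and those of no member did. With 2 libraries against 2 an exact two-sided permutation test of a single gene cannot give a p below 0.333, so the p-values here rest on the spread shared across genes.

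**Figure D1:**
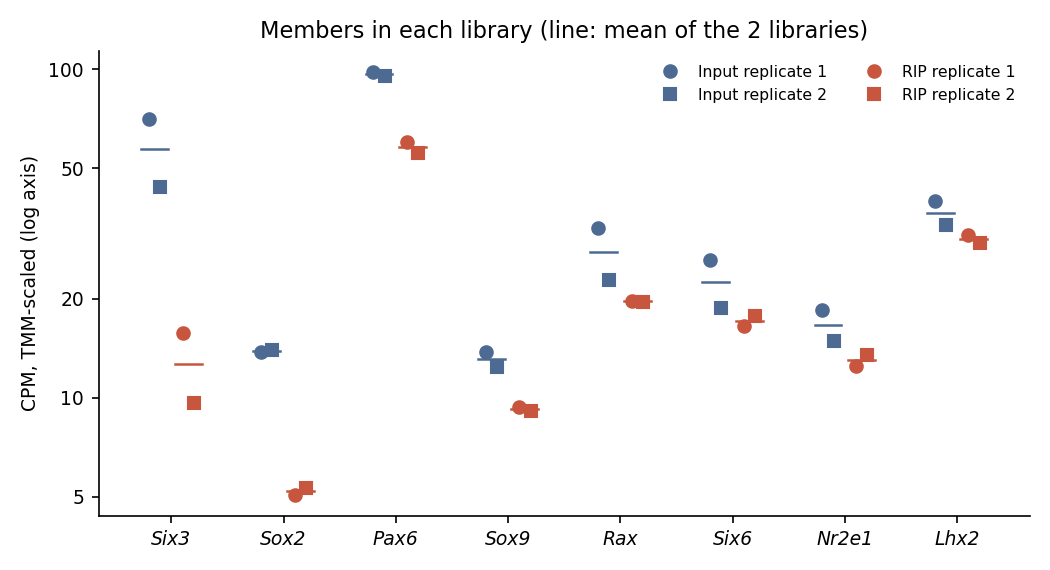
TMM-scaled CPM of each member (log axis) in the 2 input and the 2 RIP libraries, ordered by fold change, with a line at the mean of each pair. The pairs stand far apart for Six3 (57.3 against 12.7 CPM on average) and Sox2 (13.8 against 5.20 CPM), and close together for Lhx2 (36.5 against 30.4 CPM).

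Six3 gave the lowest fold change of the 8, and its paralog Six6 was among those nearer to 0. Six3 (ENSMUSG00000038805, chr17:85613608-85629302, plus strand) represses Wnt signalling in the anterior neural plate and maintains the forebrain and eye territory. It had 70.6 and 43.9 CPM in inputs 1 and 2, and 15.7 and 9.65 CPM in RIP 1 and 2. Every RIP value was far below every input value, although replicate 2 was lower than replicate 1 on both sides, by 0.68 (log2) in the inputs and by 0.70 in the RIP. The latter difference exceeded that of 96.2% of the 6858 genes that had 50 or more counts in each of the 4 libraries. Within each replicate the log2 ratio was nearly equal, -2.16 and -2.18. Six3 was 4.52-fold lower in the RIP (log2 fold change -2.18, SE 0.42, 95% interval -3.12 to -1.23, adjusted p = 0.0127, edgeR). Its fold change was above only 8.08% of all tested genes. The adjusted p was 0.128 without RIP replicate 1 and 0.233 without RIP replicate 2, with log2 fold changes of -2.46 and -1.76, each fit assuming that the lone RIP library varied as the others did.

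Six6 (ENSMUSG00000021099, chr12:72939892-72944899, plus strand), which drives proliferation of retinal precursors, had 26.2 and 18.7 CPM in the inputs and 16.5 and 17.7 CPM in the RIP libraries. Input replicate 1 stood above the other 3 libraries, and input replicate 2 was close to the RIP. The log2 fold change was -0.40 (SE 0.34, 95% interval -1.18 to 0.39, adjusted p = 0.482, edgeR). A comparison inside each library needs no scaling between libraries. There were 2.69 and 2.35 Six3 counts for each Six6 count in the inputs, and 0.952 and 0.546 in RIP replicates 1 and 2. The paralogs thus changed places, with Six3 the more counted before the pulldown and Six6 after it, narrowly in replicate 1. As a log2 difference this ratio dropped by 1.499 in replicate 1 and by 2.10 in replicate 2. It uses the same counts as the fold changes of these genes and is no further support for them.

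Sox2 and Sox9 parted in a similar way but by less. Sox2 (ENSMUSG00000074637, chr3:34650405-34652461, plus strand), the pluripotency and neural progenitor factor encoded by 1 exon, had 13.7 and 14.0 CPM in the inputs and 5.07 and 5.32 CPM in the RIP. Its replicates differed by 0.02 in the inputs and 0.07 in the RIP (log2), and its inputs were the closest of any member. Sox2 was 2.66-fold lower in the RIP (log2 fold change -1.41, SE 0.34, 95% interval -2.18 to -0.64, adjusted p = 0.0290, edgeR), and the log2 ratios were -1.42 and -1.38 in the 2 replicates. The call was less firm than that of Six3. Its adjusted p was 0.120 with library size alone and 0.104 once trends on length and GC content were taken out, and the call was also lost when either RIP library was left out, where the adjusted p reached 0.388.

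Sox9 (ENSMUSG00000000567, chr11:112782224-112787760, plus strand), of the SoxE group, had 13.8 and 12.4 CPM in the inputs and 9.35 and 9.11 CPM in the RIP. The log2 fold change was -0.50 (SE 0.33, 95% interval -1.25 to 0.24, adjusted p = 0.341, edgeR), and Sox9 was not called. Before the pulldown the libraries held nearly 1 Sox2 count for each Sox9 count (0.998 and 1.12), and after it 0.542 and 0.584. Both RIP ratios lay below both input ratios. Like the Six3 to Six6 ratio, they restate the counts behind the fold changes.

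**Figure D2:**
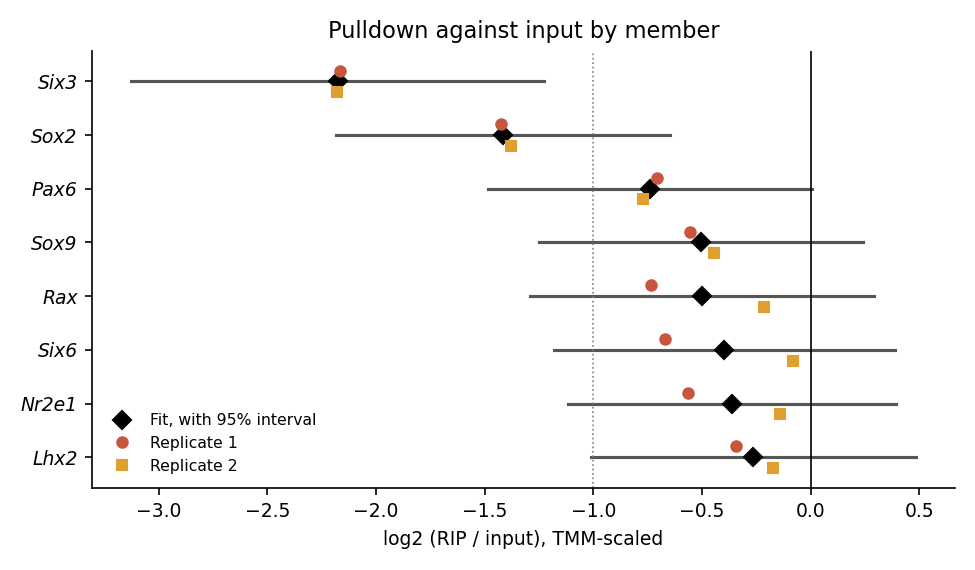
Log2 ratio of RIP to input for each member on the TMM scale. Diamonds are the fitted value with its 95% interval, circles and squares are replicates 1 and 2, and the dotted line marks -1. The intervals of Six3 and Sox2 lie below 0, that of Pax6 ends at 0.01, and those of the other 5 reach well past 0.

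Pax6 came next. Pax6 (ENSMUSG00000027168, chr2:105668900-105697364, plus strand), the paired-domain factor of the eye-field network, was the most counted member with 3270 and 3262 reads in the inputs. It had 98.1 and 95.1 CPM in the inputs and 60.1 and 55.7 CPM in the RIP libraries. The groups did not overlap and each pair was tight, with log2 ratios of -0.71 and -0.77 in the replicates. The log2 fold change of -0.74 (SE 0.33, 95% interval -1.48 to 0.01) had an unadjusted p of 0.0522 and an adjusted p of 0.173 by edgeR, so Pax6 was not called. With 1 library left out, and the lone library assumed to vary as the others, the adjusted p of Pax6 was 0.00904 without input replicate 1, 0.00606 without input replicate 2, 0.609 without RIP replicate 1 and 0.656 without RIP replicate 2, at log2 fold changes from -0.77 to -0.60. In the 2 fits with a lone input 18.1% and 19.8% of all tested genes fell.

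For Rax, Lhx2 and Nr2e1 the RIP libraries were close to the lower input. Rax (ENSMUSG00000024518, chr18:65928277-65939787, minus strand), without which no optic vesicle forms, had 32.8 and 22.8 CPM in the inputs and 19.7 and 19.6 CPM in the RIP, a log2 fold change of -0.50 (SE 0.35, adjusted p = 0.373, edgeR). Its inputs differed by more (0.53, log2) than input 2 differed from the RIP. Lhx2 (ENSMUSG00000000247, chr2:38339281-38369733, plus strand), a LIM-homeodomain factor that keeps optic vesicle cells in the retinal fate, had 39.7 and 33.4 CPM in the inputs and 31.2 and 29.6 CPM in the RIP. Its log2 fold change of -0.26 (SE 0.33, 95% interval -1.01 to 0.48, adjusted p = 0.638, edgeR) was the nearest to 0 and became 0.08 with library size alone. Nr2e1 (ENSMUSG00000019803, chr10:42561963-42583632, minus strand) had 18.5 and 14.9 CPM in the inputs and 12.5 and 13.5 CPM in the RIP, a log2 fold change of -0.36 (SE 0.33, adjusted p = 0.507, edgeR). These intervals leave room for a fall of about the size seen in Pax6 as well as for no change.

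Input replicate 2 was nearer to the RIP than input replicate 1 for 7 of the 8 members, Sox2 being the exception. Without it 7 members fell and only Lhx2 did not pass, but 19.8% of all tested genes then fell as well. The inputs differed from each other by a median of 0.56 (log2, absolute) over the 6858 genes, and the RIP libraries by 0.19.

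Because the 5 uncalled members other than Pax6 changed order with the scaling, each member was also taken as a share of the members' counts in its own library. Six3 made up 22.5% and 17.2% of these counts in inputs 1 and 2, with 95% Wilson intervals of 21.7 to 23.3% and 16.4 to 18.02%. In RIP 1 and 2 it made up 9.22% (8.39 to 10.1%) and 6.03% (5.32 to 6.82%). The share of Sox2 was 4.38% (4.01 to 4.79%) and 5.47% (5.01 to 5.97%) in the inputs, and 2.98% (2.51 to 3.53%) and 3.32% (2.80 to 3.94%) in the RIP. No RIP interval of either gene reached an input interval. Both genes had the lowest fold changes of the 8, so a lower share follows from the same counts and is no further support. Shares sum to the whole, so the loss of Six3 raises the others. Lhx2 had shares of 12.7% and 13.1% before and 18.4% and 18.5% after, whereas Pax6 had 31.3% and 37.3% before and 35.3% and 34.8% after, between its inputs. The intervals cover counting error only, and reads without molecular identifiers are not independent molecules. Against Lhx2 as the partner, the ratios of Six3, Sox2, Pax6, Rax and Sox9 were lower in both RIP libraries than in both inputs, while those of Six6 and Nr2e1 overlapped. Lhx2 had the highest fold change of the 8, so a lower ratio to it is set by that choice on average and is no further support. The Pax6 to Lhx2 ratio was 2.47 and 2.84 before and 1.93 and 1.88 after.

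**Figure D3:**
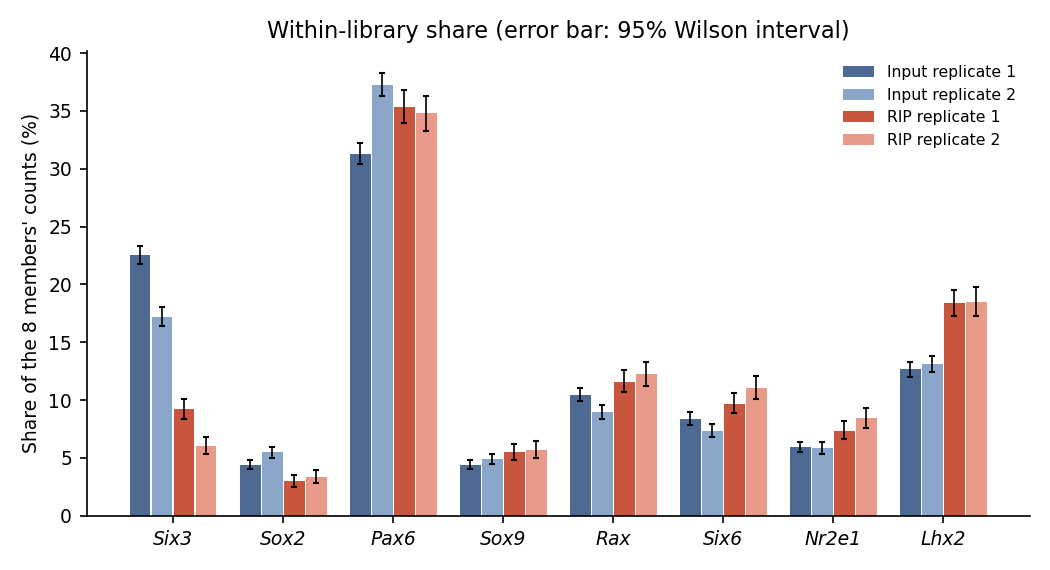
Share of the 8 members' counts (%) held by each member within each library, with 95% Wilson intervals as error bars. Six3 drops from 22.5% and 17.2% of the inputs to 9.22% and 6.03% of the RIP libraries, Sox2 also drops, and Pax6 holds 31.3% to 37.3% throughout.

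Levels between genes were compared in FPKM as deposited, which is per length. For a level in bulk retina, fewer cells of a type and less RNA per cell cannot be told apart. In the inputs the mean FPKM was highest for Rax (14.1 ± 2.40, SD, n = 2), followed by Six3 (8.86 ± 2.18), Lhx2 (7.07 ± 0.233), Pax6 (7.06 ± 0.464), Sox2 (5.75 ± 0.569), Six6 (4.74 ± 0.721), Nr2e1 (3.82 ± 0.263) and Sox9 (2.70 ± 0.0422). Of neighbours in this order only Lhx2 and Pax6 had overlapping ranges. All 8 were well expressed, from the 86.2 percentile (Sox9) to the 97.3 percentile (Rax) of tested protein-coding genes. After the pulldown the order was Rax (12.2 ± 2.56 FPKM), Lhx2 (7.20 ± 1.74), Pax6 (5.15 ± 1.34), Six6 (4.39 ± 0.684), Nr2e1 (3.62 ± 0.559), Sox2 (2.60 ± 0.458), Six3 (2.49 ± 1.31) and Sox9 (2.31 ± 0.517). Here only Rax and Lhx2, and Nr2e1 and Sox2, were neighbours whose ranges did not overlap. Six3 went from rank 2 to rank 7 and Sox2 from 5 to 6, and among all tested protein-coding genes Six3 went from the 96.0 to the 83.1 percentile. The order depends on the length taken. The counts and FPKM of Pax6 imply a length of 12183 to 12773 nt, near the 11694 nt covered by all its annotated exons together, whereas its transcript with the longest coding sequence has 2869 nt. Six3 (5681 to 5969 nt implied, 2838 nt transcript) and Lhx2 (4586 to 4793 nt implied, 2840 nt transcript) differed in the same way. For Rax the implied 1739 to 1817 nt is near the 1672 nt of its transcript, while all its annotated exons together cover 5846 nt. The first place of Rax in FPKM therefore rests on a length taken in another way than those of Six3, Lhx2 and Pax6. With CPM per kilobase of that 1 transcript a gene, Pax6 was first in the inputs at 33.7, Six3 had 20.2 and Rax 16.6. On that scale Six3 went from rank 2 to rank 4 in the RIP, at 4.46 beside 4.26 for Six6, and Sox2 from 5 to 7.

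Transcript length moved with the fold change of all genes, so the members were set beside genes of their own annotated length, from 1 transcript a gene. In the shortest of 4 equal classes of tested protein-coding transcripts (204 to 1995 nt) the median log2 fold change was -0.83 and 38.7% were depleted, and in the longest (4664 to 123179 nt) it was 0.51 and 3.55% were depleted. Sox2 (2057 nt), Six3 (2838 nt), Lhx2 (2840 nt) and Pax6 (2869 nt) were in the class of 1996 to 3128 nt, which had a median of -0.07 and 11.6% depleted. On that 1 transcript a gene, Six3, Lhx2 and Pax6 had nearly the same length and spanned log2 fold changes from -2.18 to -0.26. The lengths implied by their counts and FPKM were less alike, at means of 5831, 4698 and 12497 nt. Length was therefore not matched on that measure. Six6 (4009 nt), Sox9 (4135 nt) and Nr2e1 (3285 nt) were in the next class, with a median of 0.27, and their fold changes lay below it. Rax (1672 nt) was in the shortest class and lay above its median. Six3 and Rax are rich in GC (60.0% and 63.1%), above 94.6% and 98.7% of tested protein-coding genes, and Six6 is poor at 43.6%. With trends on length and GC taken out Six3 was at -2.49, Sox2 at -1.12, Sox9 at -0.86 and Pax6 at -0.84 (log2), and only Six3 still passed the test.

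**Figure D4:**
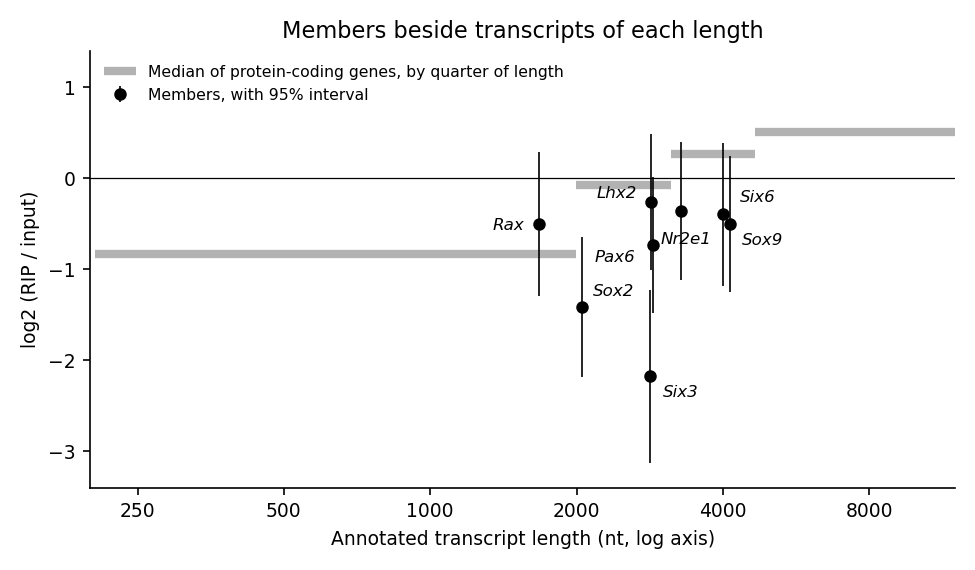
Log2 ratio of RIP to input against annotated transcript length (nt, log axis) for the 8 members, with 95% intervals. Grey bars show the median of tested protein-coding genes in each of 4 equal classes of length and rise from -0.83 to 0.51, and the axis is cut short of the longest transcripts, which run to 123179 nt. Six3 lies far below Pax6 and Lhx2 at nearly the same length of the 1 transcript taken for each gene.

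Noncoding genes, and 4930447C04Rik, which is annotated as protein-coding, lie across or beside several members. The strand setting of the counting is not given in the sources used here. Six3os1 (chr17:85600651-85618398, minus strand), which overlaps the 5′ part of Six3 on the opposite strand, had 61.2 and 46.8 CPM in the inputs and 53.3 and 48.0 CPM in the RIP. Its groups overlapped and the log2 fold change was -0.09 (SE 0.34, adjusted p = 0.884, edgeR). This overlapping pair was therefore counted about equally before the pulldown, with 1.15 and 0.938 Six3 counts for each Six3os1 count, and unequally after it, with 0.295 and 0.201. Six3 shares 106 nt of exon with Six3os1 and 168 nt with Gm28528, both on the opposite strand, or 1.95% and 3.08% of its exonic bases. Gm28528 had 278 and 50 counts before the pulldown and 25 and 37 after it. Rax shares 27.4% of its exonic bases with the antisense gene Raxos1 (349, 266, 201 and 152 counts in inputs 1 and 2 and RIP 1 and 2), and Six6 4.79% with 4930447C04Rik, so without strand these reads could not be told apart. The library kit does mark strand. Sox2ot, which spans Sox2, had 34 and 196 input counts and 32 and 10 RIP counts, and its groups overlapped (log2 fold change -1.99, SE 0.83, adjusted p = 0.150, edgeR). Input replicate 2 set much of that value, which was -0.28 without it and reached -2.96 without RIP replicate 1. 4930447C04Rik (-0.35, adjusted p = 0.731) and 2610035D17Rik beside Sox9 (0.38, adjusted p = 0.627) were not called either. Pax6os1 (9, 30, 6 and 3 counts) and Gm27197 within Lhx2 (14 counts in input 1 and 0 in the others) were too low to test.

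The members were then read beside genes they work with. Of 32 other progenitor transcription factors 30 were tested, and 1 was enriched and 4 depleted, with a median log2 fold change of -0.30. Among all tested genes 9.43% were enriched and 17.2% depleted, and 3.48% rose and 9.78% fell. Id2, an inhibitor of bHLH factors, fell from 19.2 and 15.2 CPM to 2.62 and 3.58 CPM (log2 fold change -2.47, SE 0.38, adjusted p = 0.00487, edgeR). Hes1, the Notch effector that holds progenitors undifferentiated, fell from 25.6 and 16.0 CPM to 7.97 and 6.32 CPM (-1.54, SE 0.38, adjusted p = 0.0322). Both have short transcripts of 958 and 1468 nt and lost the call with length and GC trends taken out (-1.21 and -0.87). Vax2, which patterns the ventral retina, rose from 2.91 and 1.81 CPM to 9.83 and 11.6 CPM (2.18, SE 0.40, adjusted p = 0.0112). At 1242 nt Vax2 is short too, so it moved against the trend of its length.

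Of 30 relatives by protein family 19 were tested, with a median of -0.16. Among them 3 were enriched and 0 depleted, beside 9.43% and 17.2% of all tested genes. Of the relatives 1 rose, or 2 with the replicate number as a block (3.48% and 5.29% of all tested genes). Nr2f6, an orphan receptor related to Nr2e1, rose from 11 and 3 counts to 48 and 38 counts (log2 fold change 3.04, SE 0.74, adjusted p = 0.0310, edgeR). Its counts were far lower than those of any member. The value was 4.25 without input replicate 1, 2.38 without input replicate 2 and 0.59 with limma on log2(FPKM + 1). Of 20 listed co-regulators 18 were tested, with a median of -0.62. Among them 0 were enriched and 4 depleted, beside the same 9.43% and 17.2% of all tested genes. Gmnn (Geminin), the replication licensing inhibitor that binds Six3, fell from 6.72 and 7.14 CPM to 1.11 and 2.33 CPM (-2.01, SE 0.46, adjusted p = 0.0247). With a transcript of 1127 nt it was at -0.95 and lost the call (adjusted p = 0.269, edgeR) with length and GC trends taken out. Atn1, a nuclear receptor co-repressor that binds Nr2e1, fell from 91.0 and 44.7 CPM to 25.1 and 18.7 CPM (-1.63, SE 0.43, adjusted p = 0.0399). Of 18 tested co-regulators 2 fell, as did 2 of 30 progenitor factors and 0 of 19 relatives, beside 9.78% of all tested genes. Of the relatives 1 was lower at an unadjusted p below 0.05 and 0 fell with DESeq2. Id2, Hes1, Vax2, Nr2f6, Gmnn and Atn1 all lost the call when either RIP library was left out, as Six3 and Sox2 did, and Hes1 and Atn1 also with library size alone. Hes1, Gmnn and Atn1 lost it without a filter on low counts, and Nr2f6 with length and GC trends taken out.

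**Figure D5:**
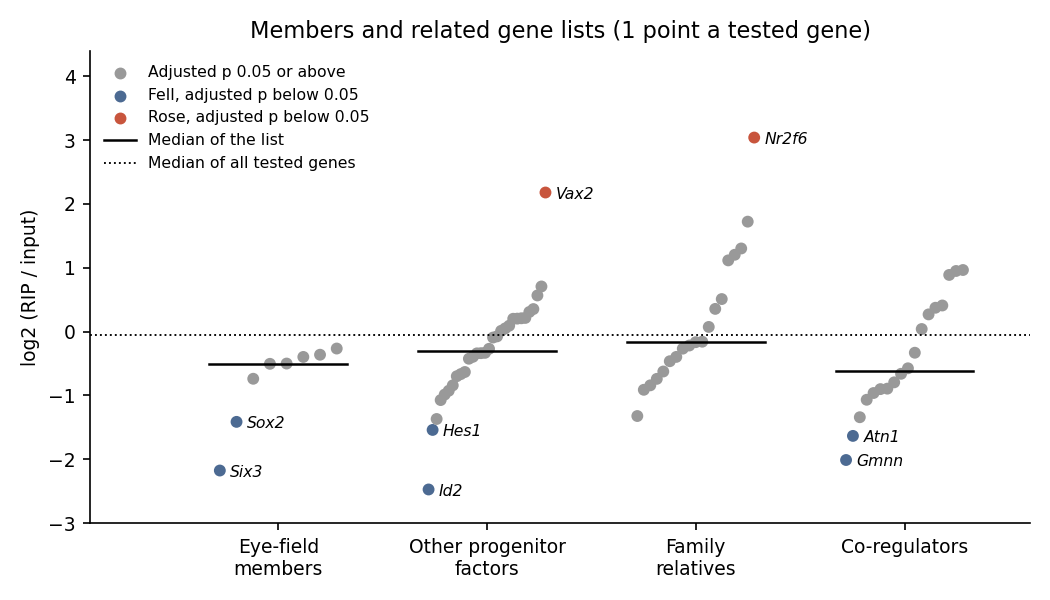
Log2 ratio of RIP to input for every tested gene of the 8 members, 30 other progenitor factors, 19 family relatives and 18 co-regulators. Coloured points passed an adjusted p of 0.05 and are named, solid lines are list medians (-0.50, -0.30, -0.16 and -0.62) and the dotted line is the median of all tested genes, -0.05.

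Likeness over the 4 libraries was measured as the Euclidean distance between log2 CPM values, each gene centred on its own mean, among 2564 genes with a mean of at least 10 CPM. Nearest to Pax6 were Mdc1 (distance 0.0489), Rbbp7 (0.0677) and Gm42047 (0.117). Nearest to Lhx2, the member with the highest fold change, were Hp1bp3 (0.0581), Ctnnd1 (0.0687) and Rab11b (0.0814). Nearest to Six3 were Rpl29 (0.120), Psmc1 (0.316) and Anp32b (0.328). The genes nearest to Six3 were farther from it than those nearest to Lhx2 were from Lhx2.

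The transcript of the precipitated protein itself, Ythdf2, had 124 and 317 input counts and 212 and 171 RIP counts. Its groups overlapped (log2 fold change 0.26, SE 0.47, adjusted p = 0.755, edgeR), and the sign turned to -0.25 without input replicate 1. This value concerns the mRNA and does not test recovery of the protein.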

How the data were processed

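RNA of P0 retina was sequenced before and after pulldown with anti-YTHDF2 antibody, in 2 replicates. The authors deposited whole-number counts per gene, not normalized, and FPKM values, scaled by them for gene length and library size. The submitters' processing notes name STAR 2.5, HTSeq and GRCm38, while annotation and strand setting are not given in the sources used here. The libraries came from a TruSeq Stranded kit.

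The count table went through filterByExpr, TMM scaling and testing in R 4.3.3 with edgeR 4.0.16 (glmQLFit, glmQLFTest, group alone), with Benjamini-Hochberg adjustment over 13632 genes. The filter took a minimum count of 10, turned into a CPM limit at the median library size, and a total of at least 15. The CPM limit had to be met in as many libraries as the smaller group holds. The scripts were tested on simulated data. Alternatives used DESeq2 1.42.0, limma 3.58.1 on log2 FPKM with a pseudocount of 0.1 or 1, which understates changes of low genes, mgcv 1.9.3 for trends on length and GC, other scalings and filters, and each library left out. DESeq2 with the edgeR filter was added after seeing the data. Transcript lengths, coordinates and sequences came from GENCODE M21 (GRCm38), with the transcript of longest coding sequence for each gene.

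The design text gives each replicate an input and a pulldown, so equal numbers pair the libraries. Replicate differences of inputs and RIP libraries had a Pearson r of -0.0282 and a Spearman rho of -0.0322 across 13632 genes, which are not independent. The replicate block changed no member's call.

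The members, lists and rules were chosen with earlier results of these data known. Named genes were the members, Ythdf2, the 3 nearest genes by likeness, and tested or detected genes that overlap or lie beside a member. From each related list up to 5 genes were named, by the largest absolute fold change at an adjusted p below 0.05. One further gene of this rule is not reported here. The genes sharing exons with a member, the ribosomal RNA genes and the markers named by symbol were chosen after their values were seen. Precision was limited by the replicates more than by depth.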

Additional observations from a re-analysis of the deposited data

How the results depend on the processing

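Six3 stayed below input under all 14 alternatives to the reported fit that kept every library, at log2 fold changes from -2.49 to -1.53, and passed an adjusted p of 0.05 in 13 of them, the exception being limma on log2(FPKM + 1) without a filter (0.112). Sox2 ranged from -1.48 to -0.91 and passed in 7 of 14. No member was enriched or rose in any of them. Members that fell, 2 as reported, numbered 1 with library size alone, without a filter on low counts, with limma on log2(FPKM + 0.1) or log2(FPKM + 1), and with length and GC trends taken out with or without the replicate block, and 0 with limma on log2(FPKM + 1) without a filter. Members depleted numbered 1 with limma on log2(FPKM + 1), filtered or not. With each library left out, members that fell ranged from 0 to 7 and members depleted from 1 to 2. The replicate block alone left the members' calls as they were, changed the relatives that rose from 1 to 2, and changed the rises among all genes from 474 to 721, while edgeR's exact test gave 870 and library size alone 845. Without RIP replicate 1 or 2 only 8 or 9 genes rose and 112 or 178 fell. The cause of these changes was not tested.

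Signs that turned were those of values near 0 or of low counts. Lhx2 was at 0.082 with library size alone, 0.0057 with limma on log2(FPKM + 0.1) and 0.0071 with log2(FPKM + 1), filtered or not. Six3os1 was at 0.26 with library size alone, 0.00087 without a filter, and 0.18 and 0.15 with limma at the smaller and larger pseudocount, and it ranged from -0.28 to 0.11 with a library left out. 4930447C04Rik was at 0.038 with limma on log2(FPKM + 0.1), 0.95 with length and GC trends taken out and 1.01 with the replicate block added, and ranged from -0.94 to 0.67 with a library left out. Ythdf2 ranged from -0.25 to 1.05.

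The counts of the related lists moved as well. Of other progenitor factors, those enriched were 1 as reported and 2 with library size alone. Those depleted were 4, and 2 with library size alone and in each limma fit. Those that fell were 2, and 1 with library size alone, without a filter, in each limma fit and with length and GC trends taken out under the replicate block, and 0 without that block. With a library left out these ranged from 1 to 8 depleted, 0 to 11 that fell and 0 to 5 that rose. Of relatives, 0 were enriched with limma on log2(FPKM + 1). Relatives that rose were 2 with library size alone, DESeq2, the exact test and the replicate block, and 0 with at least 10 counts in every library, with limma on log2(FPKM + 1) without a filter and with length and GC trends taken out. With a library left out, relatives ranged from 1 to 4 enriched, 0 to 1 depleted, 0 to 4 that rose and 0 to 3 that fell. Of co-regulators, 3 were enriched with library size alone, 2 with limma on log2(FPKM + 0.1), and 1 without a filter or with TMM on genes other than small noncoding, ribosomal RNA and mitochondrial ones. Depleted co-regulators were 2 with limma on log2(FPKM + 1). Those that fell were 1 with library size alone, with limma on log2(FPKM + 0.1) or filtered log2(FPKM + 1), and with length and GC trends taken out with or without the replicate block, and 0 without a filter, in edgeR or limma. With a library left out, co-regulators ranged from 0 to 1 enriched, 1 to 8 depleted, 0 to 4 that rose and 0 to 10 that fell.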
